A study of Mus musculus with 12 samples.

Results

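Bone morphogenetic proteins (BMPs) are secreted ligands of the TGF-beta superfamily. A BMP dimer brings together type I receptors, such as those encoded by Bmpr1a and Bmpr1b, and a type II receptor, such as that encoded by Bmpr2, and the type I receptor then phosphorylates the SMAD1/5 transducers that enter the nucleus and switch on targets such as the Id genes. Extracellular antagonists, among them noggin (Nog) and gremlin 1 (Grem1), bind the ligands and keep them from their receptors. In the developing cochlea Bmp4 is known as a marker of the lateral (outer) epithelium, and in the chick hearing organ Bmp7 has been linked to the graded positional identity of hair cells along the frequency axis.

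The genes described here are 5 ligands (Bmp2, Bmp4, Bmp5, Bmp6 and Bmp7), 3 receptors (Bmpr1a, Bmpr1b and Bmpr2) and 2 antagonists (Nog and Grem1), 10 genes of the 19938 that the arrays measure through an entry with a single gene symbol. They were chosen by name. Where a gene has several entries the brightest is used, but each of the 10 has a single entry. Total RNA of wild-type C57BL/6 mouse cochlea, without transgene or treatment in any group, was hybridized to 12 Affymetrix Mouse Gene 1.0 ST arrays: the base, middle and apex at postnatal day 0 (P0) and at postnatal day 8 (P8), with 2 arrays in each of the 6 groups. The otic capsule had been taken off, the tissue held the lateral wall and spiral limbus beside the organ of Corti, and each array is 1 pool of many animals. A first and a second dissection set each gave 1 array per group, and the base, middle and apex of an age and set came from the same animals. Because whole pieces of cochlea were used, fewer cells that express a gene and less RNA of that gene per cell cannot be told apart.

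Signals are robust multiarray average (RMA) values on the log2 scale, so that a difference of 1 is a 2-fold difference, and a signal above 6 was one of the conditions the study set for calling a gene differentially expressed. Of the 19938 genes, 16306 had a group mean above 6 and were tested, all 10 BMP genes among them, and all 120 BMP gene signals (10 genes on 12 arrays) lay above 6. A difference is called here when the adjusted p of limma (Benjamini-Hochberg over the 16306 genes) was under 0.05 and the fold was at least 1.5, or at least 2 for the comparison of the ages over the 3 regions. The comparison of the ages over the 3 regions takes the base, middle and apex of a pool as independent arrays, although they share animals. Its standard errors and intervals can therefore be too narrow where the pools of an age differ. Array medians ranged from 7.21 to 7.29. Signals of different genes come from different probes and are not set against each other.

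**Figure D1:**
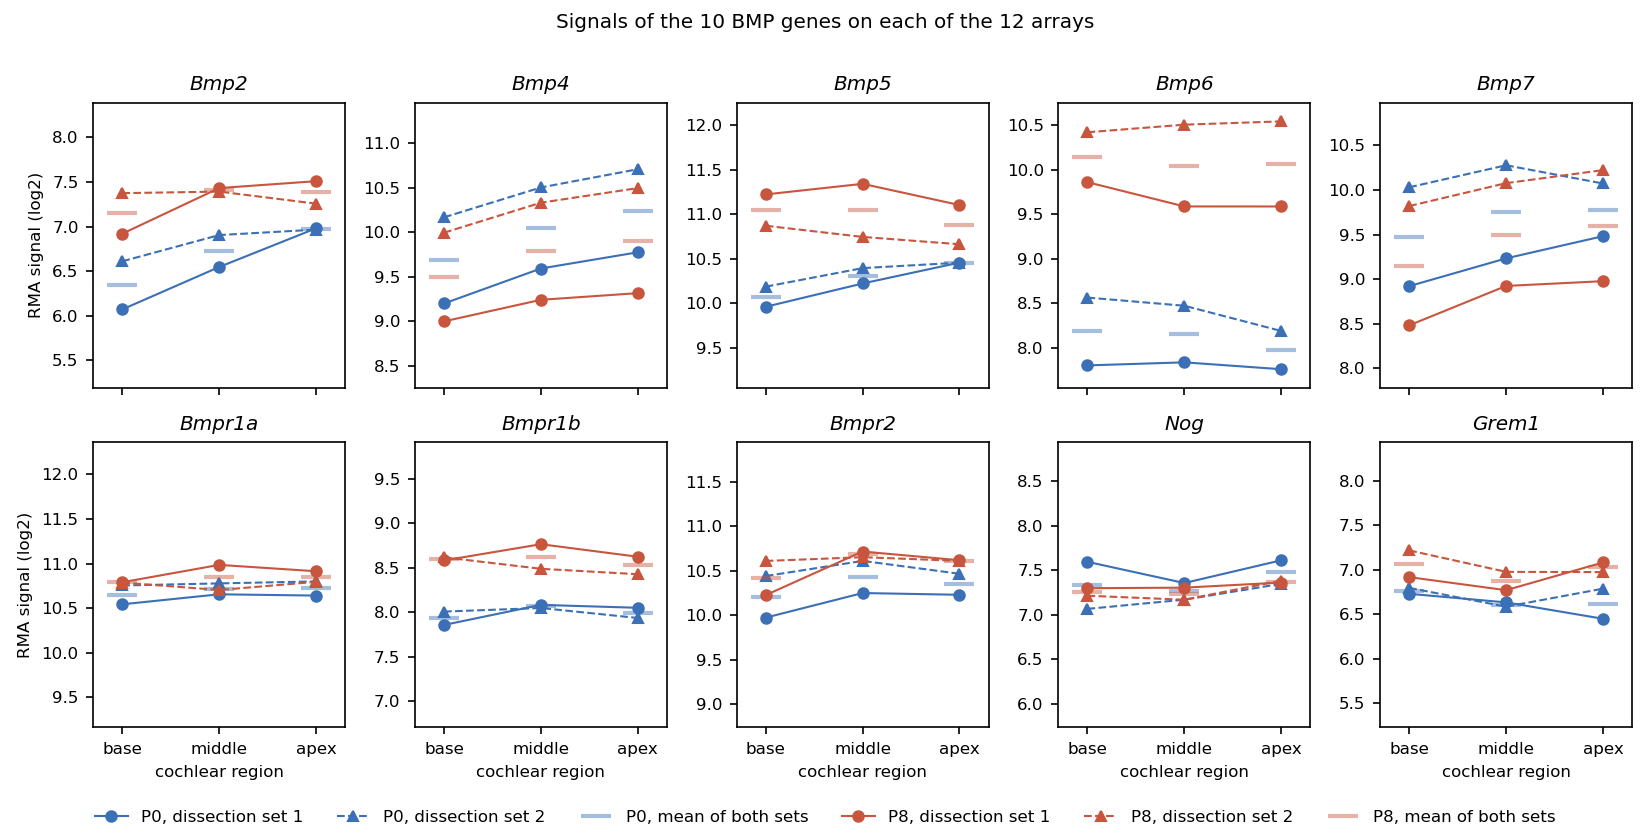
RMA signal (log2, vertical axis) of each BMP gene in the base, middle and apex (horizontal axis); circles with solid lines are the first dissection set, triangles with dashed lines the second set, blue is P0, red is P8, and the short bars are the means of both sets. Every panel spans the same range of log2 units; Bmp6 at P8 (9.59 to 10.54) lies above Bmp6 at P0 (7.76 to 8.57) in all regions, while the curves of Bmp4 and Bmp7 are separated by set more than by age.

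Among the ligands, Bmp6 rose between P0 and P8 over the 3 regions together and in the base and the apex taken alone, and it was the 1 member of the 10 that passed the 2-fold test over the 3 regions. Bmp5 and Bmp2 were also higher at P8, by less than 2-fold, whereas Bmp4 and Bmp7 differed by less than the spread between arrays. Among the receptors, Bmpr1b was higher at P8 on all arrays and passed the 1.5-fold test in the base. No member passed the test between apex and base at either age. Bmp4 nevertheless had its signals in the order base, middle, apex in each of the 4 pools of animals.

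The sequences just upstream of the transcription starts are shown for the 3 genes whose P8 arrays all lay above their P0 arrays (Bmp6, Bmp5 and Bmpr1b) and for Bmp4, the gene with the regular regional order. They are the 250 bases before the start in RefSeq's annotation of mouse build GRCm38.p6, read 5′ to 3′ on the gene's strand. RefSeq starts were matched by symbol for 7 of the 10 members. Capitals mark matches, on either strand, to a TATA box (TATAAA), a GC box (GGGCGG) or the GC-rich element described for SMAD1/5 (GGCGCC, its own reverse complement). Bmp6 is on the plus strand at chr13:38345466-38345715, Bmp5 on the plus strand at chr9:75775115-75775364, Bmp4 on the minus strand at chr14:46390670-46390919, and the outermost of the 3 Bmpr1b starts on the minus strand at chr3:141982265-141982514.
Bmp6: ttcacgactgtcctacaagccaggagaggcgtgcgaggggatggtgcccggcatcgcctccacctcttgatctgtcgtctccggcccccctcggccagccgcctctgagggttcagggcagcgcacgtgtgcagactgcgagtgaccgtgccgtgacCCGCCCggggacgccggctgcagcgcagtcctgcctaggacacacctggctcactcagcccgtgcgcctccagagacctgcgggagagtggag
Bmp5: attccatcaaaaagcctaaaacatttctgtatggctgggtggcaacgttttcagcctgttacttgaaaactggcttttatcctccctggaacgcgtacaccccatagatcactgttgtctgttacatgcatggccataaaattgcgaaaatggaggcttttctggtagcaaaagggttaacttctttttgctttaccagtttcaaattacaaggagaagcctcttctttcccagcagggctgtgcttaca
Bmpr1b: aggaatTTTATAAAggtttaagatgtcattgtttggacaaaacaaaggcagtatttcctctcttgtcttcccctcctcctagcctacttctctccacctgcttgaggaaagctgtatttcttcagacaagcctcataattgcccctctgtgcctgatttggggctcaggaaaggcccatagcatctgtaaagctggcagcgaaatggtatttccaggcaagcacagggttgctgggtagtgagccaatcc
Bmp4: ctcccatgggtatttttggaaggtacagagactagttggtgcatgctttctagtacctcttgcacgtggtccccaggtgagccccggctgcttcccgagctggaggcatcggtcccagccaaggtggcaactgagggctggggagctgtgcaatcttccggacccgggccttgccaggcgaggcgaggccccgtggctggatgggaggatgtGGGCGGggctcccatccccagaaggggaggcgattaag

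These stretches differ in base composition. The Bmp6 stretch is 68.8% G or C and holds 22 CpG dinucleotides, against 42.8% and 4 in Bmp5, 46.8% and 1 at the Bmpr1b start shown, and 63.2% and 11 in Bmp4. The median over all 32851 listed promoters is 52.4% G or C. A GC box lies at -93 to -88 in Bmp6 and at -38 to -33 in Bmp4, counted back from the start, and 32.7% of all promoters hold one in the same window. The Bmpr1b stretch shown has 2 overlapping TATA box matches on opposite strands, at -244 to -237, a motif that 12.4% of promoters hold. The stretches before the other 2 Bmpr1b starts hold none of the 3 motifs, are 52.8% and 56.4% G or C and have 5 CpG dinucleotides each. None of the 3 motifs occurs in the Bmp5 stretch, and the GC-rich element, held by 9.59% of promoters, occurs in none of these 4.

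Bmp6 encodes a ligand known from cartilage, bone and iron metabolism. In the first set its P0 signals were 7.80, 7.84 and 7.76 (base, middle, apex), and its P8 signals were 9.86, 9.59 and 9.59. In the second set the P0 signals were 8.57, 8.47 and 8.19 and the P8 signals 10.42, 10.51 and 10.54. Thus the lowest P8 array lay above the highest P0 array, and the regions of an age lay close together. The difference over the 3 regions was 1.98 ± 0.26 (log2, SE; 95% interval 1.40 to 2.56), or 3.94-fold, with an adjusted p of 0.000944 from limma. It was 1.88 within the first set and 2.08 within the second, each of which holds 1 pool per age. Of all tested genes, 2.06% passed this test as higher at P8 and 1.14% as lower, against 1 and 0 of the 10 members. With each of the 12 arrays left out in turn the difference stayed between 1.82 and 2.14 and passed each time.

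Region by region, the Bmp6 difference between the ages was 1.96 ± 0.44 in the base (adjusted p = 0.0477 from limma), 1.89 ± 0.44 in the middle (0.0524) and 2.09 ± 0.44 in the apex (0.0324). With the dissection set as a block the middle passed as well (adjusted p = 1.6e-05 from limma). Without a block these adjusted p values lay near the threshold of 0.05, and calls were lost in some fits with a single array left out. For the base this held also where that array was in neither group compared. In the fits with an array left out the difference stayed between 1.58 and 2.34 in the base. It stayed between 1.43 and 2.35 in the middle and between 1.61 and 2.57 in the apex.

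Bmp5, a ligand with roles in skeletal and limb patterning, had P0 signals of 9.96, 10.22 and 10.46 (base, middle, apex) in the first set and 10.19, 10.40 and 10.46 in the second. At P8 the signals were 11.22, 11.34 and 11.10 in the first set and 10.87, 10.75 and 10.66 in the second. The ages did not overlap, and the difference over the 3 regions was 0.71 ± 0.14 (log2, SE; 95% interval 0.40 to 1.02, 1.64-fold, adjusted p = 0.00691 from limma), short of the 2-fold threshold. The first set gave a difference of 1.01 and the second 0.41. In the base the ages differed by 0.97 ± 0.23 (adjusted p = 0.0604 from limma), which passed with the set as a block (0.00607). It also passed with arrays shifted to one median (0.0379) and without either P8 middle array (0.0421).

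Bmp2, a ligand known from bone and heart development, had P0 signals of 6.07, 6.55 and 6.98 (base, middle, apex) in the first set and 6.61, 6.90 and 6.97 in the second. The P8 signals were 6.92, 7.43 and 7.51 in the first set and 7.38, 7.39 and 7.26 in the second. The ages overlapped narrowly, since the lowest P8 array, the base of the first set, lay under both P0 apex arrays. The difference over the 3 regions was 0.64 ± 0.13 (log2, SE; 95% interval 0.34 to 0.93, 1.55-fold, adjusted p = 0.0102 from limma). With the set as a block the base (0.81, adjusted p = 0.0125 from limma) and the middle (0.69, 0.0268) passed the 1.5-fold test.

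For Bmp4 and Bmp7 the signals varied most between the dissection sets. Bmp4 signals ranged from 9.00 to 9.77 in the first set and from 9.99 to 10.71 in the second, without overlap, and the sets differed by 1.01 on average. Bmp7, a ligand known from kidney and eye development, ranged from 8.48 to 9.48 in the first set and from 9.82 to 10.28 in the second, an average difference of 1.08. Set differences of smaller size were found for 97.6% of tested genes in the case of Bmp4 and for 98.1% in the case of Bmp7, and the median size over all tested genes was 0.19. Bmp6 had a set difference of 0.71, larger than that of 92.2% of tested genes, while the other 7 members had differences of 0.01 to 0.23 in size. The sets also differ in the year of their labels, so dissection and anything else that changed between them cannot be told apart. The cause of the set difference was not tested. The medians of the 12 cell type marker lists differed between the sets by -0.45 to 0.18.

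The age difference of Bmp4 over the 3 regions, -0.26 ± 0.35 (log2, SE; 95% interval -1.05 to 0.53), did not pass (adjusted p = 0.661 from limma), nor did that of Bmp7, -0.25 ± 0.38 (interval -1.11 to 0.61, adjusted p = 0.7). Within the sets Bmp4 was lower at P8 by 0.34 and 0.19, with P8 below P0 in each region of each set. With the set as a block the difference of Bmp4 had an adjusted p of 0.00853 from limma, and that of Bmp7 one of 0.0509; neither reached 2-fold, so neither passed with the block either. Leaving out single arrays gave Bmp4 differences of -0.46 to -0.06.

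**Figure D2:**
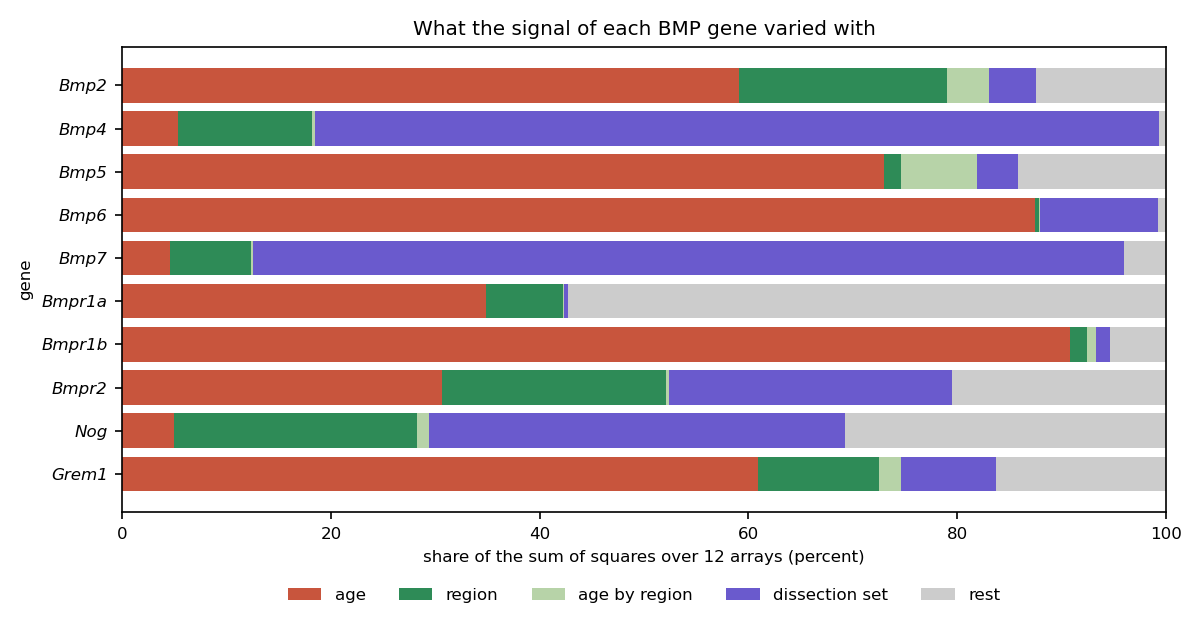
Share of the sum of squares of each gene's 12 signals (percent, horizontal axis) that goes with age, region, their interaction, the dissection set and the rest. Age takes 90.8% in Bmpr1b and 87.5% in Bmp6, and the set takes 83.4% in Bmp7 and 80.9% in Bmp4.

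The sum of squares of the 12 signals of a gene can be divided among age, region, age by region, set and rest. Age took 90.8% of it in Bmpr1b, 87.5% in Bmp6, 73.0% in Bmp5, 60.9% in Grem1 and 59.1% in Bmp2, against a median of 19.9% over all tested genes. The set took 80.9% in Bmp4 and 83.4% in Bmp7, against a median of 21.8%. The largest region shares among the members were those of Nog (23.3%), Bmpr2 (21.5%) and Bmp2 (20.0%), against a median of 5.71%. In none of these genes was region the largest of the shares. In Bmp4 region took 12.8% and age 5.38%. Bmpr2 and Nog were mixed, with 30.6% and 4.95% for age and 27.1% and 39.9% for the set. In Bmpr1a the largest share, 57.3%, went with none of these.

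Among the receptors, Bmpr1b encodes a type I receptor known from cartilage formation. Its P0 signals were 7.86, 8.08 and 8.05 (base, middle, apex) in the first set and 8.01, 8.05 and 7.94 in the second. The P8 signals were 8.58, 8.77 and 8.62 in the first set and 8.62, 8.49 and 8.43 in the second. All P8 arrays lay above all P0 arrays, with a difference over the 3 regions of 0.59 ± 0.08 (log2, SE; 95% interval 0.40 to 0.78, adjusted p = 0.00154 from limma). In the base the difference was 0.67 ± 0.14, or 1.59-fold (adjusted p = 0.0405 from limma). That call remained without either P8 middle array (0.0449) and was lost without any other array, with adjusted p values of 0.0583 to 0.243 and differences of 0.59 to 0.74. In the middle (0.56 ± 0.14) and the apex (0.53 ± 0.14) it did not pass, and quantile normalization brought the apex past the test (0.62, adjusted p = 0.042 from limma).

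Bmpr1a, the more widely expressed type I receptor gene, ranged from 10.54 to 10.80 at P0 and from 10.70 to 10.99 at P8. The difference between the ages was 0.13 ± 0.09 (log2, SE), with a 95% interval of -0.06 to 0.33, and it was 0.28 in the first set and -0.02 in the second. Bmpr2, the type II receptor gene, ranged from 9.97 to 10.61 at P0 and from 10.23 to 10.72 at P8. Its difference was 0.24 ± 0.12 with an interval of -0.03 to 0.52 (adjusted p = 0.21 from limma, and 0.0396 with the set as a block). For both genes the ages overlapped, and the intervals leave room for no more than a 1.26-fold difference upward in Bmpr1a and 1.43-fold in Bmpr2.

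Of the antagonists, Nog ranged from 7.07 to 7.61 at P0 and from 7.17 to 7.38 at P8. Its difference between the ages was -0.07 ± 0.11 (log2, SE; 95% interval -0.32 to 0.18), and the P8 arrays lay inside the P0 range. Grem1 ranged from 6.45 to 6.80 at P0 and from 6.77 to 7.22 at P8, with overlap at a single P8 array, the middle of the first set. The difference was 0.33 ± 0.10 (interval 0.11 to 0.54, 1.25-fold, adjusted p = 0.0446 from limma), nearly equal in the first set (0.32) and the second (0.33).

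Counted together, 3 of the 10 members (Bmp5, Bmp6 and Bmpr1b) had all 6 P8 arrays above all 6 P0 arrays, a pattern that 8.08% of tested genes showed, and no member had the opposite pattern. An adjusted p under 0.05 at any fold, higher at P8, was found for 5 members (Bmp2, Bmp5, Bmp6, Bmpr1b and Grem1), against 9.52% of tested genes. For Grem1 that adjusted p ranged from 0.0282 to 0.113 with single arrays left out. With the set as a block 7 members were under 0.05 in either direction, these 5 with Bmpr2 (higher) and Bmp4 (lower). The share of all tested genes was not counted for that fit, and the 9.52% is not a measure for it. The median difference of the 10 members was 0.28, and that of all tested genes was 0.00. Within regions, 2 members passed as higher at P8 in the base (Bmp6 and Bmpr1b), 0 did so for the middle and 1 for the apex (Bmp6), against 2.34%, 2.37% and 2.42% of tested genes. With the set as a block these counts were 4 (Bmp2, Bmp5, Bmp6 and Bmpr1b), 3 (Bmp2, Bmp5 and Bmp6) and 1 (Bmp6), against 6.27%, 6.16% and 6.00%.

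**Figure D3:**
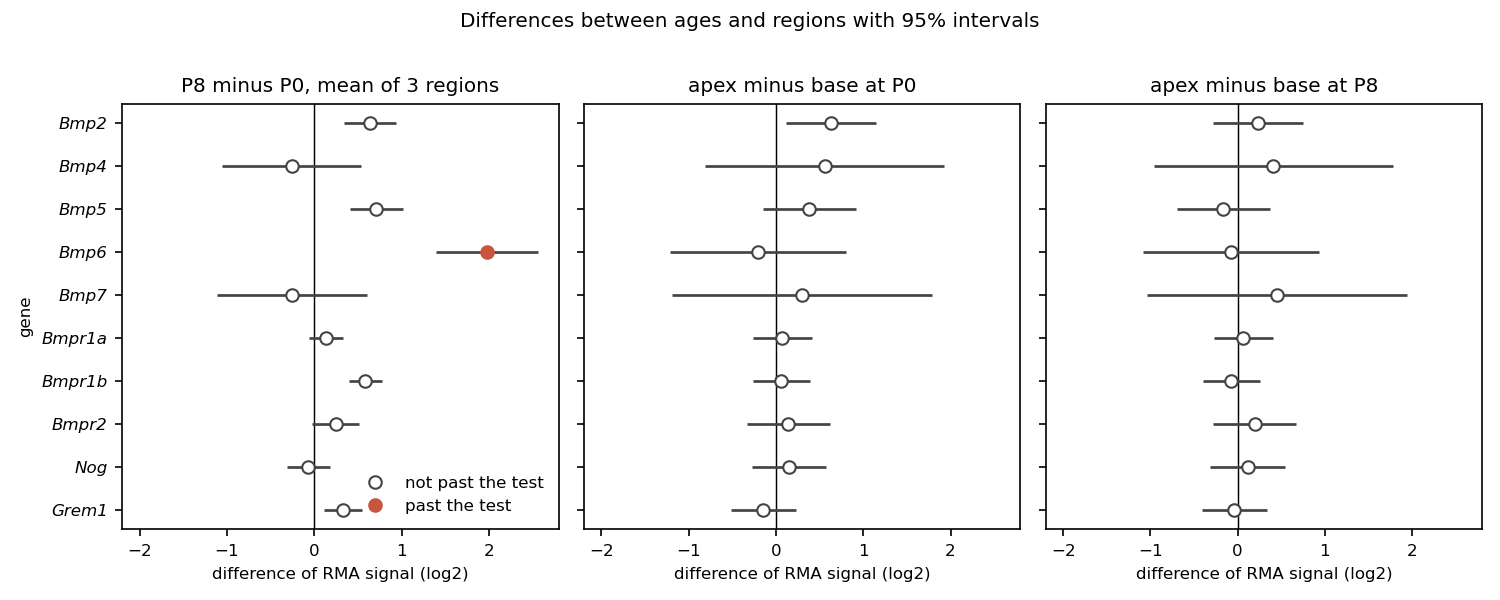
Differences of RMA signal (log2, horizontal axis) for the 10 genes between the ages over 3 regions and between apex and base at each age; points are limma estimates from 12 arrays, bars are 95% intervals, and the filled point passed the test. Bmp6 is the filled point at 1.98; the intervals of Bmp4 and Bmp7 are the widest, and between apex and base the interval of Bmp2 at P0 (0.12 to 1.15) is the 1 that lies wholly on one side of 0.

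Along the cochlea the largest difference of a member was 0.63 (Bmp2 at P0), against 1.98 between the ages (Bmp6 over the 3 regions). For Bmp4, Bmp7 and Nog, however, the apex-base estimates at both ages were larger in size than the age difference over the 3 regions. Between apex and base 0 of 10 members passed at P0 and 0 at P8. Of all tested genes 0.00613% passed as higher in the apex at P0 (1 gene) and 0.178% at P8, so these tests without a block made few calls anywhere. The median of the members was 0.15 at P0 and 0.09 at P8, against 0.03 and 0.00 over all tested genes. Signals were higher in the apex than in the base in all 4 pools for 5 members (Bmp4, Bmp7, Bmpr1a, Bmpr2 and Nog), a pattern of 13.2% of tested genes.

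Bmp4 was the 1 member whose signals stepped up from base to middle to apex in all 4 pools, which 1.83% of tested genes did. At P0 the base, middle and apex had 9.20, 9.59 and 9.77 in the first set and 10.17, 10.50 and 10.71 in the second. At P8 they had 9.00, 9.24 and 9.31 in the first set and 9.99, 10.33 and 10.49 in the second. The apex exceeded the base by 0.57 and 0.54 in the P0 pools and by 0.32 and 0.50 in the P8 pools.

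In the fit without a block the spread between the sets enters the error of Bmp4, and the apex-base difference was 0.56 ± 0.60 at P0 and 0.41 ± 0.60 at P8 (log2, SE; adjusted p = 1 for both from limma). With the pool of animals as a block the same differences had standard errors of 0.10 and adjusted p values of 0.0121 at P0 and 0.0389 at P8 from limma. At 1.47-fold and 1.33-fold they stayed under the 1.5-fold threshold. An adjusted p under 0.05 at any fold, higher in the apex, was found in that fit for 1.16% of tested genes at P0 and 2.61% at P8, and for 1 member, Bmp4, at each age. Supporting cell markers (Sox2, Prox1, Fgfr3, Jag1, Lfng, Hes5, S100a1 and Gata3) were also higher toward the apex, in 8 of 8 genes at P0 and 7 of 8 at P8. Their medians were 0.31 and 0.71, and 0 and 1 of them passed the test. Among the other lists, hair cell markers were higher in the apex in 8 of 10 genes at P0 and 10 of 10 at P8, spiral ganglion neuron markers in 6 and 7 of 8, and Schwann cell markers in 2 and 5 of 5. Stria vascularis markers lay the other way, with 0 of 7 higher in the apex at both ages and a median of -0.40 at each, as did those of spiral ligament fibrocytes in 6 of 8 and 7 of 8 genes, with medians of -0.26 and -0.22. Skeletal muscle markers were higher in the apex in 8 of 9 genes at P0 (median 0.37) and 5 of 9 at P8. Bone and osteoblast markers were so in 5 and 0 of 7 (median -0.70 at P8), and cartilage markers in 7 and 2 of 10. The counts were 5 and 1 of 8 for endothelium, 4 and 1 of 8 for leukocytes, and 0 and 1 of 3 for red blood cells. Of all tested genes 57.2% were above 0 at P0 and 50.6% at P8. The part of these cells in the order of Bmp4 was not tested.

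Bmp7 had the apex above the base by 0.56 and 0.04 in the P0 pools and by 0.50 and 0.40 in the P8 pools, and its middle exceeded its apex in the second P0 pool. Its apex-base difference was 0.30 ± 0.66 at P0 and 0.45 ± 0.66 at P8 (log2, SE), the latter with an adjusted p of 0.0674 from limma with the pool as a block. Bmp2 had the largest regional estimate of the members, 0.63 ± 0.23 at P0 (0.91 and 0.36 in the pools, adjusted p = 0.0697 with the pool as a block). At P8 it was 0.24 ± 0.23, with 0.59 in the first set and -0.12 in the second.

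The apex-base difference was then compared between the ages, and its change passed for 0 of 10 members and 0.00% of tested genes. With a block it passed for 0 members too, while of all tested genes 23 passed upward and 6 downward with the set as a block, and 96 and 55 with the pool as a block. At an unadjusted p under 0.05 limma without a block gave 215 genes with an upward change and 118 with a downward one. The estimate farthest from 0 among the members was that of Bmp5, -0.55 ± 0.33 (log2, SE; 95% interval -1.30 to 0.21). Bmp5 was higher in the apex in both P0 pools (0.50 and 0.27) and lower in the apex in both P8 pools (-0.12 and -0.21).

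The order of the 6 group means is given with the overlap of the arrays of neighboring groups, which counts the spread between the dissection sets as well. In Bmp6 the 3 P0 groups came first and the 3 P8 groups last, and the arrays of neighboring groups were separate at the step between the ages (8.19 in the P0 base, 10.05 in the P8 middle) and overlapped at the other 4 steps. Bmpr1b had the same layout, with its separate step between the P0 middle (8.07) and the P8 apex (8.53). In Bmp5 the P0 base (10.07), P0 middle (10.31), P0 apex (10.46) and P8 apex (10.88) followed each other without overlap, and the P8 middle and base were the highest. In Bmp2 1 step of 5 was separate, from the P0 middle (6.73) to the P0 apex (6.97). In Bmpr2 2 of 5 steps were separate, ending in the P8 apex (10.61) and the P8 middle (10.68). In Bmp4, Bmp7, Bmpr1a, Nog and Grem1 all 5 neighboring pairs overlapped. For Bmp4 and Bmp7 the difference between the sets (1.01 and 1.08) was larger than any step between groups, and the regular order of Bmp4 within each pool, given above, is not seen in this overlap.

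Pairs of members can be compared by Pearson's r over the 12 arrays, which share ages, sets and pools, so that r describes the arrays and carries no test. The highest values were those of Bmp4 with Bmp7 (0.97, and 0.86 after each set's mean was taken off) and of Bmp5 with Bmpr1b (0.93 and 0.93). Bmp6 followed Bmpr1b with 0.84 (0.94 without set means) and Grem1 with 0.82 (0.80). The lowest value was that of Bmpr2 with Nog (-0.62, and -0.43 without set means); without set means the lowest were those of Grem1 with Bmp7 (-0.69) and with Bmp4 (-0.67).

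Over all tested genes, the closest patterns by the same measure were Cav2 (r = 0.99), which encodes a caveolin, and Lrrc26 (0.98) for Bmp6, and Elovl7 (0.99) and Slc44a2 (0.99) for Bmpr1b. For Bmp5 they were Cldn12 (0.97), a claudin gene, and Idh3a (0.96), for Bmp2 Lncpint (0.97) and Phf11c (0.95), and for Grem1 Tmem52 (0.97) and Usp43 (0.96). Bmp4 was closest to Triobp (0.98), which encodes an actin-bundling protein of hair cell stereocilia rootlets, and to Ppm1d (0.98). Bmp7 was closest to Wasl (0.99) and Mapk1ip1 (0.99). For these 4 genes r was 0.91, 0.91, 0.95 and 0.93, in that order, after set means were taken off. Bmpr1a was closest to Cdkal1 (0.98) and Ap1g1 (0.97), Bmpr2 to Sos2 (0.98) and Vwa8 (0.97), and Nog to Bahd1 (0.94) and Crocc (0.93).

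**Figure D4:**
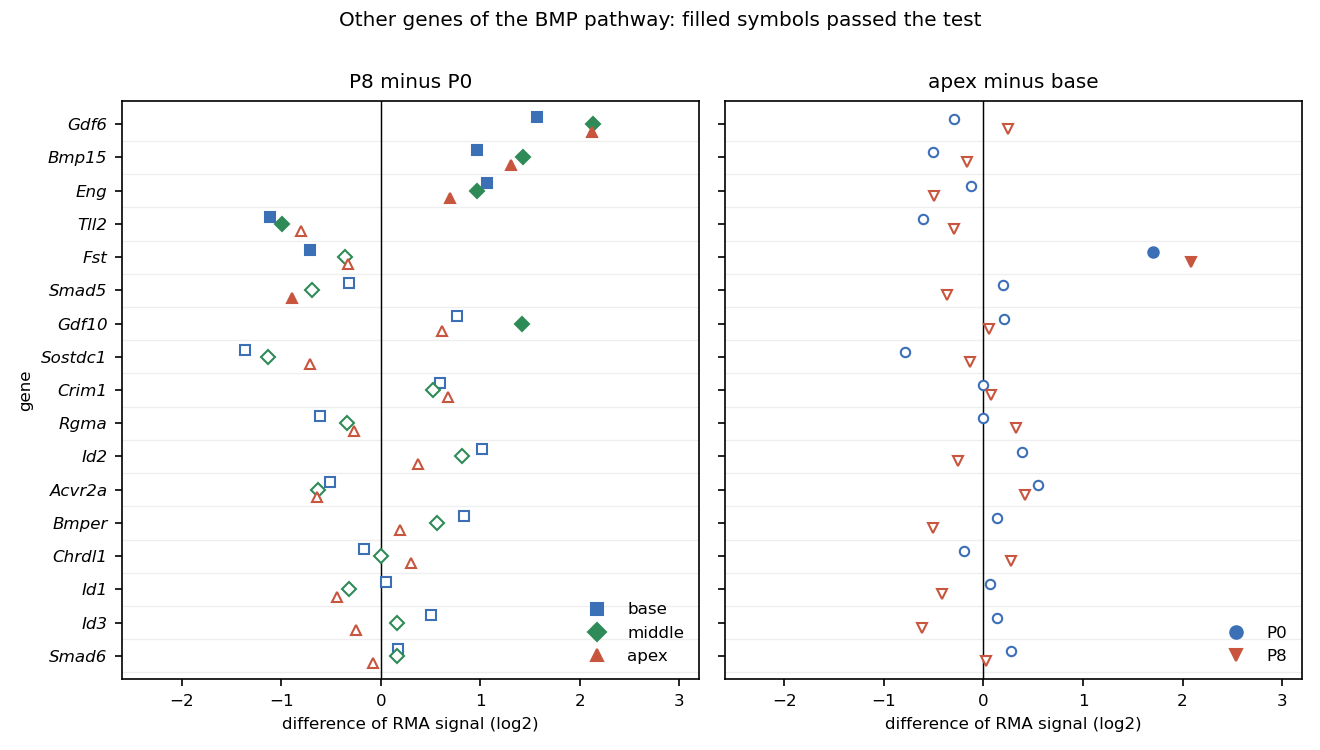
Differences of RMA signal (log2, horizontal axis) of 17 other BMP pathway genes between P8 and P0 in each region and between apex and base at each age; filled symbols passed the test in the fit without a block. Gdf6, Bmp15 and Eng are filled in all 3 regions, and Fst is filled at both ages between apex and base.

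The rest of the pathway was read from 56 other genes, of which 55 had an entry and 52 were tested. Over the 3 regions 2 of the 52 rose at least 2-fold (Gdf6 and Bmp15) and 1 fell (Sostdc1), against 2.06% and 1.14% of all tested genes. The median of the 52 was 0.05, against 0.00 over all tested genes. Between apex and base 1 gene, Fst, passed as higher in the apex at P0 and at P8, against 0.00613% and 0.178% of tested genes. The 17 shown in the plot are the 13 past the test in at least 1 comparison, with or without the set as a block, together with Chrdl1, Id1, Id3 and Smad6, taken by name.

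Of 9 other ligand genes tested, Gdf6, a BMP-family ligand of joints and skull, ranged from 6.21 to 6.80 at P0 and from 8.20 to 8.96 at P8. Its difference of 1.94 ± 0.16 (log2, SE; 3.83-fold, adjusted p = 9.18e-05 from limma) was close in size to that of Bmp6. It also passed in each region (base 1.57, middle 2.13, apex 2.12). Bmp15, known as an oocyte growth factor, had P0 signals of 5.86 to 6.62 and P8 signals of 7.23 to 7.91, a difference of 1.24 ± 0.11 (adjusted p = 0.000114 from limma). Only its P0 apex signal in the first set, 5.86, lay under the level of 6. Gdf10, related to Bmp3, passed in the middle (1.42 ± 0.31, adjusted p = 0.0415 from limma; kept in 2 of the 12 fits that left out an array) and, with the set as a block, in the base and apex.

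Of 9 other receptor and co-receptor genes, Eng, which encodes endoglin, rose by 1.07 ± 0.16 (base), 0.96 ± 0.16 (middle) and 0.69 ± 0.16 (apex) (log2, SE; adjusted p = 0.00917, 0.013 and 0.0473 from limma), calls kept in 9, 8 and 2 of the 12 fits that left out an array. Endothelial cells are the cells best known for endoglin. Of 8 endothelial markers 7 were above 0 in the base (median 0.25), 7 in the middle (0.25) and 6 in the apex (0.10). In no region did any of them pass the same 1.5-fold test. The part of endothelial cells in the rise of Eng was not tested. The type II receptor gene Acvr2a and the co-receptor gene Rgma had negative differences between the ages (-0.59 and -0.41) and passed within regions with the set as a block: Acvr2a in the middle (adjusted p = 0.0112 from limma) and apex (0.00958), and Rgma in the base (0.00834).

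Of 15 other antagonist and binding protein genes, Sostdc1, an antagonist of BMP and Wnt signals, fell by 1.07 on the log2 scale (SE 0.25, adjusted p = 0.0168 from limma) and passed in 6 of the 12 fits that left out an array. With the set as a block its fall passed in the base, middle and apex (adjusted p = 6.99e-05, 0.000184 and 0.00319 from limma). In that fit it was also lower in the apex than in the base at P0 (-0.79, adjusted p = 0.0258 from limma). Fst, which encodes follistatin, was higher in the apex by 1.70 ± 0.16 at P0 and 2.09 ± 0.16 at P8 and fell in the base with age by 0.71 on the log2 scale (adjusted p = 0.0427 from limma). With the set as a block these differences passed as well (adjusted p = 0.000778 at P0, 0.000131 at P8 and 0.00562 in the base from limma). With single arrays left out they stayed between 1.61 and 1.79 at P0 and between 1.93 and 2.24 at P8. In the base the difference stayed between -0.87 and -0.55. The calls at P0 and in the base were lost in each of these fits, also where the array left out was in neither group compared. The call at P8 was lost in some of them. Crim1 and Bmper had positive age differences in the base (0.59 and 0.83) that passed with the set as a block, as did that of Crim1 in the apex (0.68). Chrdl1, which encodes the antagonist paired with Bmp7 in the chick, ranged from 9.18 to 9.84 at P0 and from 9.05 to 9.76 at P8, and passed in no comparison.

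Among 3 astacin proteases, which cleave the antagonist chordin, Tll2 fell by 1.11 in the base and by 0.99 in the middle on the log2 scale (SE 0.20 for both; adjusted p = 0.0191 and 0.0285 from limma), calls kept in 9 and 4 of the 12 fits that left out an array. Among 8 signal transducers, Smad5 fell by 0.89 in the apex (SE 0.21, adjusted p = 0.0473 from limma), a call lost in each of the 12 fits that left out an array. With the set as a block the differences of Tll2 in the apex (-0.80, adjusted p = 0.00273 from limma) and of Smad5 in the middle (-0.69, 0.0212) passed too. With the pool as a block Tll2 was lower in the apex than in the base at P0 (-0.61, adjusted p = 0.0223 from limma). Of 11 target genes none passed without a block. Id2 had the largest age difference of the Id genes shown, 1.01 ± 0.38 in the base, which passed with the set as a block (adjusted p = 0.00219 from limma), as did its difference in the middle (0.81, 0.00748). Id1 and Id3 went in opposite directions in the sets: the P8 to P0 difference over the 3 regions was -0.73 and 0.25 for Id1 and -0.22 and 0.49 for Id3 in the first and the second set. For Smad6 the difference was 0.09 ± 0.15, with a 95% interval of -0.25 to 0.42.

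Markers of the tissues in the samples moved with age too. Of 7 tested bone and osteoblast markers 6 rose over the 3 regions, with a median of 1.86, and the summed linear signal of the 8 measured ones was 1028 to 2363 at P0 and 3353 to 9783 at P8, without overlap. Of the stria vascularis markers 3 of 7 rose (summed signal 7030 to 10773 at P0, 12953 to 19342 at P8), of the spiral ligament fibrocyte markers 2 of 8 rose (17996 to 24746 and 26271 to 31332), and of the spiral ganglion neuron markers 2 of 8 fell (2299 to 3064 and 1142 to 1704). Summed signals were also higher at P8 without overlap for hair cell markers (2823.5 to 3302.5 at P0, 3615.8 to 6487.8 at P8). The same held for Schwann cell markers (3589 to 4519 and 4687 to 8789). It held too for markers of macrophages and other leukocytes (1882.5 to 2345.7 and 2455.7 to 3427.2). All 10 hair cell markers and all 8 supporting cell markers had a group mean above 6. In the first set the apex array at P0 had a summed signal of skeletal muscle markers of 2872, against 1047 to 1418 on the other arrays, and leaving it out is among the fits above. The part of these tissues in the age differences of Bmp6, Bmp5, Bmpr1b and Gdf6 was not tested.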

How the data were processed

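Arrays were hybridized with labeled cDNA made from total RNA of pooled cochlear pieces. According to the methods, the authors made image files with Affymetrix Command Console and normalized them by RMA, and the deposited table holds log2 signals of 35556 entries per array. Whether both dissection sets went through RMA together, and which build underlies the entries, are not given in the sources used here. From the platform annotation 21789 entries have 1 gene symbol, 1621 several and 12146 none; names were updated through RefSeq for 16253 of the 16306 tested genes. The members and gene lists were chosen with earlier results of these data known.

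From the log2 signals, limma 3.58.1 (R 4.3.3) was fitted to the 6 group means over all 12 arrays without a block, since the methods name an unpaired test; the spread of a gene had 6 residual and 2.78 prior degrees of freedom. Tested genes had a mean above 6 in at least 1 group. The methods' thresholds (1.5-fold, level of 6) were kept, with Benjamini-Hochberg adjustment, and 2-fold was set for the ages over 3 regions. There are 7 comparisons. Intervals of 95% were taken from limma's moderated standard errors. The fit was tested on simulated data. All 10 members were reported in every comparison; of 56 listed pathway genes, those past the test with or without the set block, at most 15, and 6 fixed genes were named, and for each member the 2 genes with the highest r. Base, middle and apex of an age and set share animals. Age comparisons over the 3 regions take them as independent arrays. The pool cannot serve as a block there, since each pool has a single age. Leaving out 1 array keeps the other pieces of its pool in the fit. Deviations of same-set arrays from their group means correlated at 0.54 to 0.92 over the 15 pairs of groups (0.70 to 0.92 within an age), so fits with the set or the pool as a block are given where they change a call. With 2 arrays per group, the number of arrays limits the precision. Marker lists covered hair cells, supporting cells, stria vascularis, spiral ligament, spiral ganglion neurons, Schwann cells, bone, cartilage, muscle, red blood cells, leukocytes and endothelium. Over the 3 regions 3 hair cell markers rose and 1 fell, 1 supporting cell marker fell, 1 Schwann cell marker rose, 1 cartilage marker fell, and 0 muscle, red blood cell, leukocyte or endothelial markers passed. Figures were drawn with matplotlib 3.10.9.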

Additional observations from a re-analysis of the deposited data

Results flagged for a closer look

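The apex-base difference of Bmp5 was positive in both P0 pools and negative in both P8 pools, a change of -0.55 (log2) from P0 to P8. Among the pathway genes the same kind of sign change was seen for Gdf6 (a change of 0.55), Smad5 (-0.57) and Chrdl1 (0.47). In these 4 genes all pools of an age agreed in sign and the ages were opposed. The change itself was tested by limma and passed for none of the 4 (adjusted p = 1 without a block; with the pool as a block 0.167 for Bmp5, 0.314 for Gdf6, 0.28 for Smad5 and 0.299 for Chrdl1). With 2 pools per age the difference between the ages was not shown.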

How the results depend on the processing

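Of 70 member differences (10 genes in 7 comparisons), the one call over the 3 regions, Bmp6, passed under all alternatives run. Without a block the members past the test numbered 2 for the base, 0 for the middle and 1 for the apex. With the dissection set as replicate block they numbered 4 in the base and 3 in the middle, and the block changed no other count of members. The methods' t-test (unpaired) gave 0 in the base and 0 in the apex after Benjamini-Hochberg adjustment, as it did for all tested genes in these regions. At the methods' threshold (unadjusted p under 0.05, 1.5-fold) it gave 2 members in the base (Bmp5 and Bmpr1b), 0 in the middle and 0 in the apex. Of the 16306 tested genes that threshold gave 423 higher and 295 lower in the base, 409 and 316 in the middle, and 445 and 359 in the apex. Without the filter on dim genes 1 was left in the base, since Bmp6 there went to an adjusted p of 0.0511. Quantile normalization gave 1 in the middle (Bmp6) and 2 in the apex (Bmp6 and Bmpr1b), and shifting arrays to one median gave 1 in the middle (Bmp6). With single arrays left out the counts ran from 0 to 3 in the base, 0 to 1 in the middle and 0 to 1 in the apex. In those fits a group is left with 1 array that is taken to vary like the others. Of 840 differences with an array left out, 62 had the other sign, and of 566 under the other alternatives 1 did (Bmpr1a, the change of the apex-base difference); none of these passed the test in either fit. All-gene counts moved by over 1.5 times with the set as a block: from 382 higher and 241 lower to 1023 and 691 in the base, from 387 and 268 to 1005 and 800 in the middle, from 395 and 343 to 979 and 978 in the apex, and between apex and base from 1 and 0 to 66 and 44 at P0 from 29 and 3 to 185 and 72 at P8, and from 0 and 0 to 23 and 6 for the change between them. With the pool as a block the last 3 were 119 and 112, 252 and 206, and 96 and 55. The background correction of the probes was not varied, since the signals used are RMA values. The replicates are 2 pools per group, and nothing finer than the pool can be told apart.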
